A study of Mus musculus with 16 samples.

Results

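The genes described here are 38 known targets of the tumour suppressor p53 and components of the DNA damage response, measured by RNA-seq in mouse primary cortical neurons after oxygen-glucose deprivation (OGD), a culture model of ischemia, with or without the antidepressant tianeptine (TIA). They were taken by symbol from a fixed list of names that was chosen with earlier results of these data known. The study had also reported p53 signalling as regulated by OGD in these libraries. Shares of the list set beside all genes are therefore descriptive and no independent test. The deposited values of all isoforms that carry a symbol were summed, so that the 38 genes stand for 38 of 53679 gene symbols and 221 of 135202 isoforms. The cells came from the cortex of wild-type mice at embryonic day 15, were grown in 6-well plates and received 10 μM TIA or vehicle at 8 days in vitro, 24 h before a 3-h OGD or a sham exposure, and RNA was taken after 6 h of reoxygenation. The groups were CONTROL-VEH (cultures 1 to 4), CONTROL-TIA (5 to 8), OGD-VEH (9 to 12) and OGD-TIA (13 to 16), each with 4 cultures that the study describes as biological replicates. Every group shared the genotype, the medium and the time of harvest, and the labels call the vehicle groups untreated. Values below are FPKM, fragments per kilobase of transcript scaled to the depth of the library, and are listed in the order of these culture numbers.

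When DNA is broken, the kinases ATM and ATR, acting partly through the kinases CHK2 and CHK1, stabilise the transcription factor p53. p53 then switches on genes that stop the cell cycle, repair DNA, restrain growth or kill the cell, together with genes that switch p53 off again. Cortical neurons no longer divide, and in ischemic neurons p53 is best known as a promoter of cell death. Cultures of embryonic cortex also hold dividing glial precursors, in which the cell cycle branch of the pathway operates.

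OGD in vehicle-treated cultures raised a large share of these genes. With limma on log2(FPKM + 0.1), 12 of the 38 passed an adjusted p (padj) of at most 0.05 with a log2 fold change of at least 1, all of them higher after OGD, beside 2.4% of the 16346 genes tested that were called higher, 1.68% called lower and 4.09% called in either direction. The 12 were the cell cycle and stress genes *Ccng1*, *Gadd45a*, *Gadd45b*, *Gtse1*, *Sfn* and *Btg2*, the death and survival genes *Pidd1*, *Eda2r*, *Phlda3* and *Igfbp3*, the growth regulator *Sesn2* and the detoxifying enzyme *Ephx1*. Below a 2-fold change, *Cdkn1a*, *Zmat3*, *Polk* and *Rchy1* also passed the adjusted p, which made 16 of 38, beside 4.99% of all genes. At an unadjusted p under 0.05, 23 of 38 were higher (20.2% of all genes) and 0 lower. The median log2 fold change was 0.91 over the 38 genes and 0.10 over all genes tested, and 34 of 38 lay above 0, beside 58.2% of all genes. In 21 of 38 every OGD-VEH culture lay above every CONTROL-VEH culture (12.7% of all genes), and in 0 of 38 did every one lie below (9.95%). The calls in the vehicle arm depended on single cultures. Without CONTROL-VEH 2 or without CONTROL-VEH 3, 0 of the 38 genes were called and 1 gene in the whole table was. Without CONTROL-VEH 1 or 4 or OGD-VEH 10 or 11, *Pidd1* was the only 1 of the 38 called, beside 0.0306% to 0.11% of all genes. Without OGD-VEH 12, *Pidd1* and *Ephx1* were called, beside 0.435% of all genes. Without OGD-VEH 9, 19 of the 38 were called, while calls over the whole table rose from 4.09% to 13.4%. The log2 fold changes of the 12 genes kept their sign in all of these fits.

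**Figure D1:**
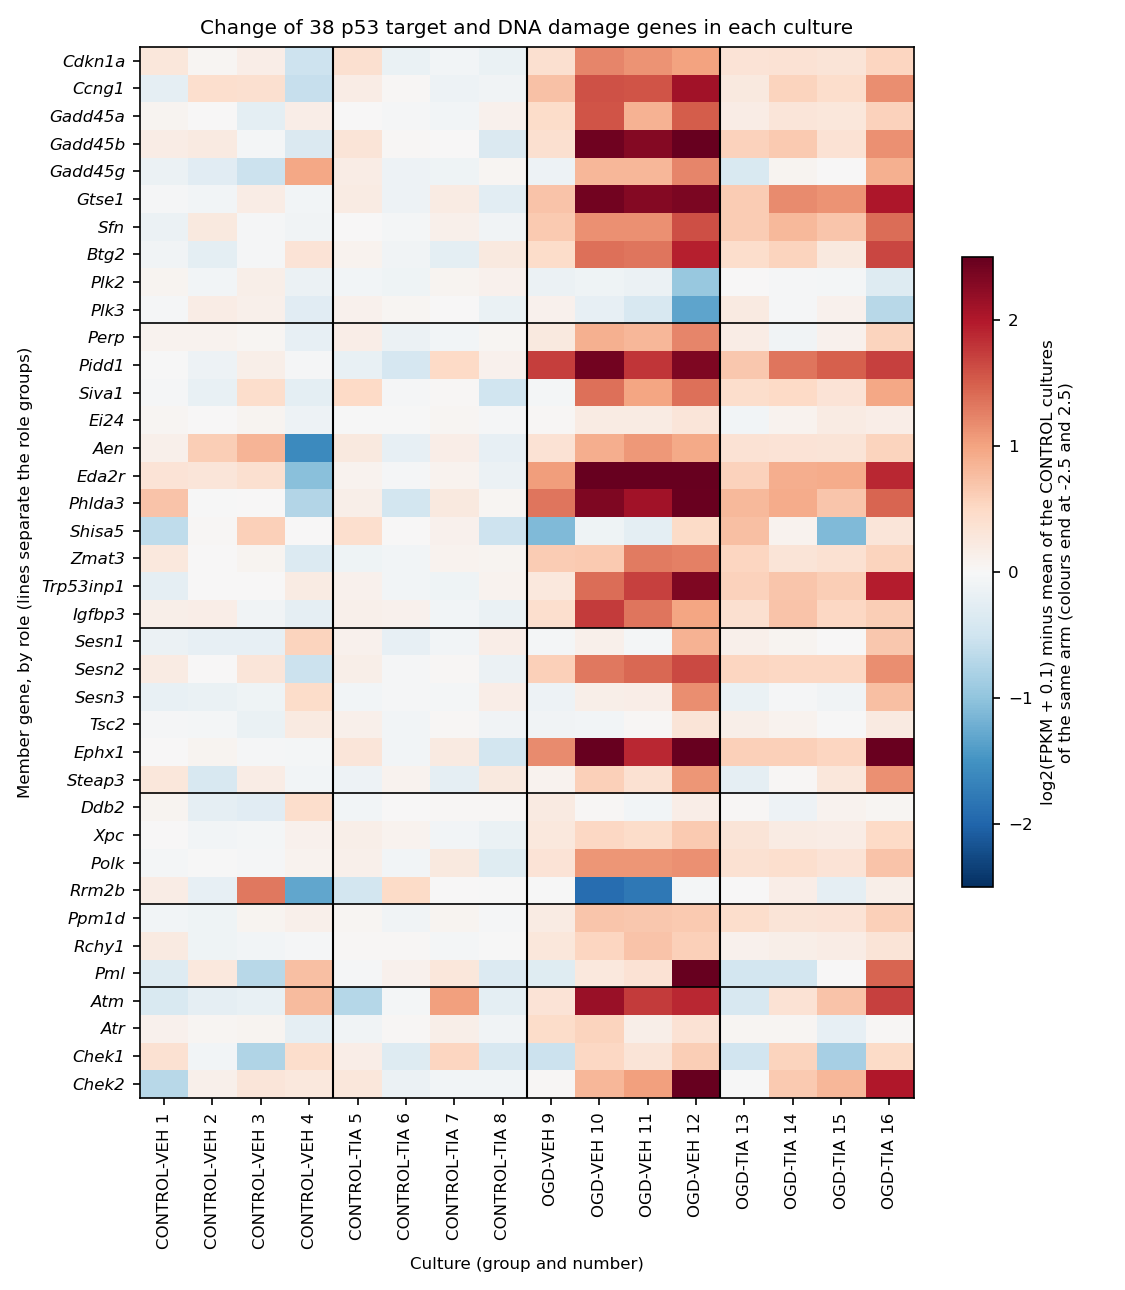
Each cell of the map shows the log2(FPKM + 0.1) of 1 gene in 1 culture minus the mean of the control group of the same arm, with the 38 genes in rows grouped by role and the 16 cultures in columns. The OGD-VEH cultures 10 to 12 and the OGD-TIA culture 16 hold most of the high values, while OGD-VEH culture 9 stays nearer to its controls, with a median change over the 38 genes of 0.28 against 0.86, 0.93 and 1.19 in cultures 10, 11 and 12.

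Levels of cell type markers differed between cultures and moved with OGD. Summed over 10 neuron markers, the level was 2048 to 2700 FPKM in CONTROL-VEH, 2104 to 2295 in CONTROL-TIA, 1048 to 1901 in OGD-VEH and 1320 to 2126 in OGD-TIA. Markers of proliferating cells (8 of 8 found) summed to 148 to 224 in the 8 control cultures, 195 to 473 in OGD-VEH and 157 to 338 in OGD-TIA, and those of the oligodendrocyte lineage (6 of 6) to 152 to 206, 232 to 637 and 216 to 412. Astrocyte markers (6 of 6) summed to 1485 in CONTROL-VEH 4, 2338 in OGD-VEH 12 and 1785 in OGD-TIA 16 and to 587 to 1264 in the other cultures. Markers of microglia (6 of 6) summed to at most 3.03 FPKM and those of endothelial and mural cells (7 of 7) to at most 5.96, with *Cx3cr1*, *Cldn5* and *Cdh5* at or near 0. In such bulk samples, fewer cells of a type and less RNA per cell cannot be told apart. The part of these differences in the results below was not tested. Depth, estimated from the steps between low values, was 19.9 to 25.4 M reads per culture, at which 1 read on a transcript of 1 kb is worth 0.0394 to 0.0503 FPKM. The higher of these estimates lie above the range of aligned reads per sample that the study states.

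p53 binds a pair of decamers. RefSeq promoters of 300 bases (250 before the start of transcription and 50 after it, GRCm38.p6) were found for 32 of the 38 genes. The consensus p53 decamer occurred on either strand in 13 of the 32 (40.6%) and in 9.55% of 27025 genes. Of the 12 genes called in the vehicle arm 3 held it (*Ccng1*, *Gadd45a* and *Gtse1*), and 10 of the other 20 genes with a promoter held it. A pair of decamers with at most 13 bases between them, which includes the same decamers, was found only in *Cdkn1a* among these genes and in 0.074% of all genes. The motif of AP-1, TGACTCA on either strand, was in 0 of 32 (5.95% of all genes), the cAMP response element TGACGTCA in 4 (*Btg2*, *Plk2*, *Ppm1d* and *Shisa5*, 2.03%) and the NF-kappaB consensus in 3 (*Atr*, *Gtse1* and *Steap3*, 6.55%). A match describes the letters only, and these windows leave out introns and distal elements, where many p53 sites are known to lie. Shown are the windows of the 3 genes of the arrest group with a decamer before the start and of *Btg2*, with the motif in capitals, all read along the strand of the gene.
Cdkn1a, paired p53 decamers, chr17:29090881-29090962, plus strand: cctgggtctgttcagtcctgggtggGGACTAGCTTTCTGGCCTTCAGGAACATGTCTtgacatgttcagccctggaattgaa
Ccng1, p53 decamer, chr11:40755437-40755496, minus strand: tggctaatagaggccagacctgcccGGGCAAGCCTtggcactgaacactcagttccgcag
Gadd45a, p53 decamer, chr6:67037413-67037472, minus strand: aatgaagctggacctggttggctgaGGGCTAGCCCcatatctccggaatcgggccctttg
Btg2, cAMP response element, chr1:134079289-134079346, minus strand: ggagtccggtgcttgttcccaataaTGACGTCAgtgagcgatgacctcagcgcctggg
In *Cdkn1a* the capitals span both decamers that the search found and the 12 bases between them. The search allowed no mismatch to the consensus. The stretch tgacatgttc, directly after the capitals, departs from the consensus only at its opening base and was therefore not marked.

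Among the 10 genes of cell cycle arrest and checkpoints, 7 rose in the vehicle arm and 6 of these passed the fold threshold. *Ccng1* (chr11:40748552-40755311, minus strand) encodes cyclin G1, which recruits a phosphatase to the p53 regulator MDM2. It was at 40.8, 63.6, 63.4 and 31.9 FPKM in CONTROL-VEH and 79.9, 143, 142 and 206 FPKM in OGD-VEH. With TIA, *Ccng1* was at 72.6, 65.2, 58.3 and 59.8 FPKM in CONTROL-TIA and 75.5, 94.4, 86.6 and 143 FPKM in OGD-TIA. No OGD culture of either arm reached down to its controls, and OGD-VEH 12 was the highest of all 16. The log2 fold change was 1.50 ± 0.32 (standard error) in the vehicle arm (padj = 0.0393, limma) and 0.60 ± 0.19 in the TIA arm (padj = 0.168).

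*Gtse1* (chr15:85859745-85876573, plus strand) encodes a microtubule-associated protein that restrains p53 in G2 of the cell cycle. Its level was 1.92, 1.86, 2.23 and 1.86 FPKM in CONTROL-VEH and 3.29, 10.9, 10.00 and 10.4 FPKM in OGD-VEH. In OGD-VEH, cultures 10 to 12 lay close together and culture 9 stood well below them, though still above every control. The TIA arm held 2.19, 1.72, 2.18 and 1.56 FPKM in CONTROL-TIA and 3.00, 4.42, 4.21 and 7.94 FPKM in OGD-TIA for *Gtse1*. The groups did not overlap there either, and the log2 fold change was 1.94 ± 0.37 in the vehicle arm (padj = 0.0339, limma) and 1.24 ± 0.28 in the TIA arm (padj = 0.116). The proliferating cell markers summed to 195, 362, 311 and 473 FPKM in OGD-VEH 9 to 12, with culture 9 again lowest, and their part in this result was not tested.

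The GADD45 proteins are small stress sensors that bind the kinase MEKK4 and the replication clamp PCNA. *Gadd45a* (chr6:67035096-67037457, minus strand) was at 2.50, 2.41, 2.02 and 2.69 FPKM in CONTROL-VEH and 3.33, 7.33, 4.44 and 6.995 FPKM in OGD-VEH. In TIA cultures *Gadd45a* stood at 2.64, 2.57, 2.50 and 2.82 FPKM in CONTROL-TIA and 3.00, 3.249, 3.21 and 3.97 FPKM in OGD-TIA. All 8 OGD cultures exceeded the controls of their arm, narrowly so in the TIA arm. *Gadd45b* (chr10:80930073-80932204, plus strand) was at 2.10, 2.16, 1.79 and 1.42 FPKM in CONTROL-VEH and 2.48, 10.4, 9.41 and 11.497 FPKM in OGD-VEH. Under TIA, *Gadd45b* measured 2.44, 1.99, 1.95 and 1.48 FPKM in CONTROL-TIA and 2.94, 3.09, 2.52 and 4.41 FPKM in OGD-TIA. OGD-VEH 10 to 12 stood at several times their controls, whereas OGD-VEH 9 and OGD-TIA 13 to 15 lay nearer to theirs and OGD-TIA 16 at over 2 times the mean of its controls. *Gadd45g* (chr13:51846678-51848468, plus strand) was at 11.4, 10.2, 8.64 and 24.4 FPKM in CONTROL-VEH and 11.49, 22.3, 22.5 and 29.4 FPKM in OGD-VEH. For *Gadd45g* the TIA arm gave 12.5, 10.02, 10.2 and 11.3 FPKM in CONTROL-TIA and 8.39, 11.4, 11.02 and 20.4 FPKM in OGD-TIA. Its groups overlapped in both arms, and CONTROL-VEH 4 lay above 3 of the OGD-VEH cultures. The log2 fold changes in the vehicle arm were 1.10 ± 0.27 for *Gadd45a* (padj = 0.0447, limma), 1.93 ± 0.46 for *Gadd45b* (padj = 0.0447) and 0.69 ± 0.38 for *Gadd45g* (padj = 0.222), so that *Gadd45g*, the most abundant of the family in the controls, was the member that did not pass. Differences between the members were not tested.

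*Cdkn1a* (chr17:29090976-29100727, plus strand) encodes p21, the inhibitor of cyclin-dependent kinases through which p53 stops the cell cycle. It was at 53.6, 45.8, 49.6 and 30.8 FPKM in CONTROL-VEH and 58.1, 103, 95.8 and 88.9 FPKM in OGD-VEH. With TIA, *Cdkn1a* was at 63.4, 42.7, 45.9 and 42.8 FPKM in CONTROL-TIA and 60.8, 61.6, 59.9 and 69.9 FPKM in OGD-TIA. The vehicle groups did not overlap, and the TIA groups did, because CONTROL-TIA 5 lay above 3 of the OGD-TIA cultures. *Cdkn1a* rose by a log2 fold change of 0.94 ± 0.23 in the vehicle arm (padj = 0.0456, limma), short of the fold threshold, and the value in the TIA arm was 0.39 ± 0.14 (padj = 0.198).

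*Sfn* (chr4:133600556-133602168, minus strand), 14-3-3 sigma, keeps the mitotic kinase CDK1 out of the nucleus. *Sfn* was at 1.85, 2.45, 2.01 and 1.91 FPKM in CONTROL-VEH and 3.27, 4.65, 4.63 and 6.41 FPKM in OGD-VEH. The TIA cultures held 1.96, 1.88, 2.12 and 1.82 FPKM in CONTROL-TIA and 3.08, 3.48, 3.19 and 5.25 FPKM in OGD-TIA for this gene. Control values were tight in both arms, and every OGD culture lay above them. *Btg2* (chr1:134075170-134079120, minus strand), an antiproliferative adaptor of the CCR4-NOT deadenylase, was at 6.95, 6.22, 7.25 and 9.40 FPKM in CONTROL-VEH and 10.1, 19.2, 18.7 and 28.5 FPKM in OGD-VEH. In TIA cultures *Btg2* was at 6.84, 6.04, 5.37 and 7.55 FPKM in CONTROL-TIA and 8.74, 9.41, 7.61 and 20.5 FPKM in OGD-TIA. OGD-TIA 16 stood at over 2 times the other OGD-TIA cultures, and OGD-VEH 12 was the highest of its group. The log2 fold change was 1.14 ± 0.22 for *Sfn* (padj = 0.0345, limma) and 1.27 ± 0.29 for *Btg2* (padj = 0.0437) in the vehicle arm. Of the remaining 2 genes of the group, the polo-like kinases *Plk2* and *Plk3*, neither passed, with vehicle-arm log2 fold changes of -0.34 and -0.46, and OGD-VEH 12 had the lowest value of the 16 cultures for both, 40.6 and 3.201 FPKM.

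**Figure D2:**
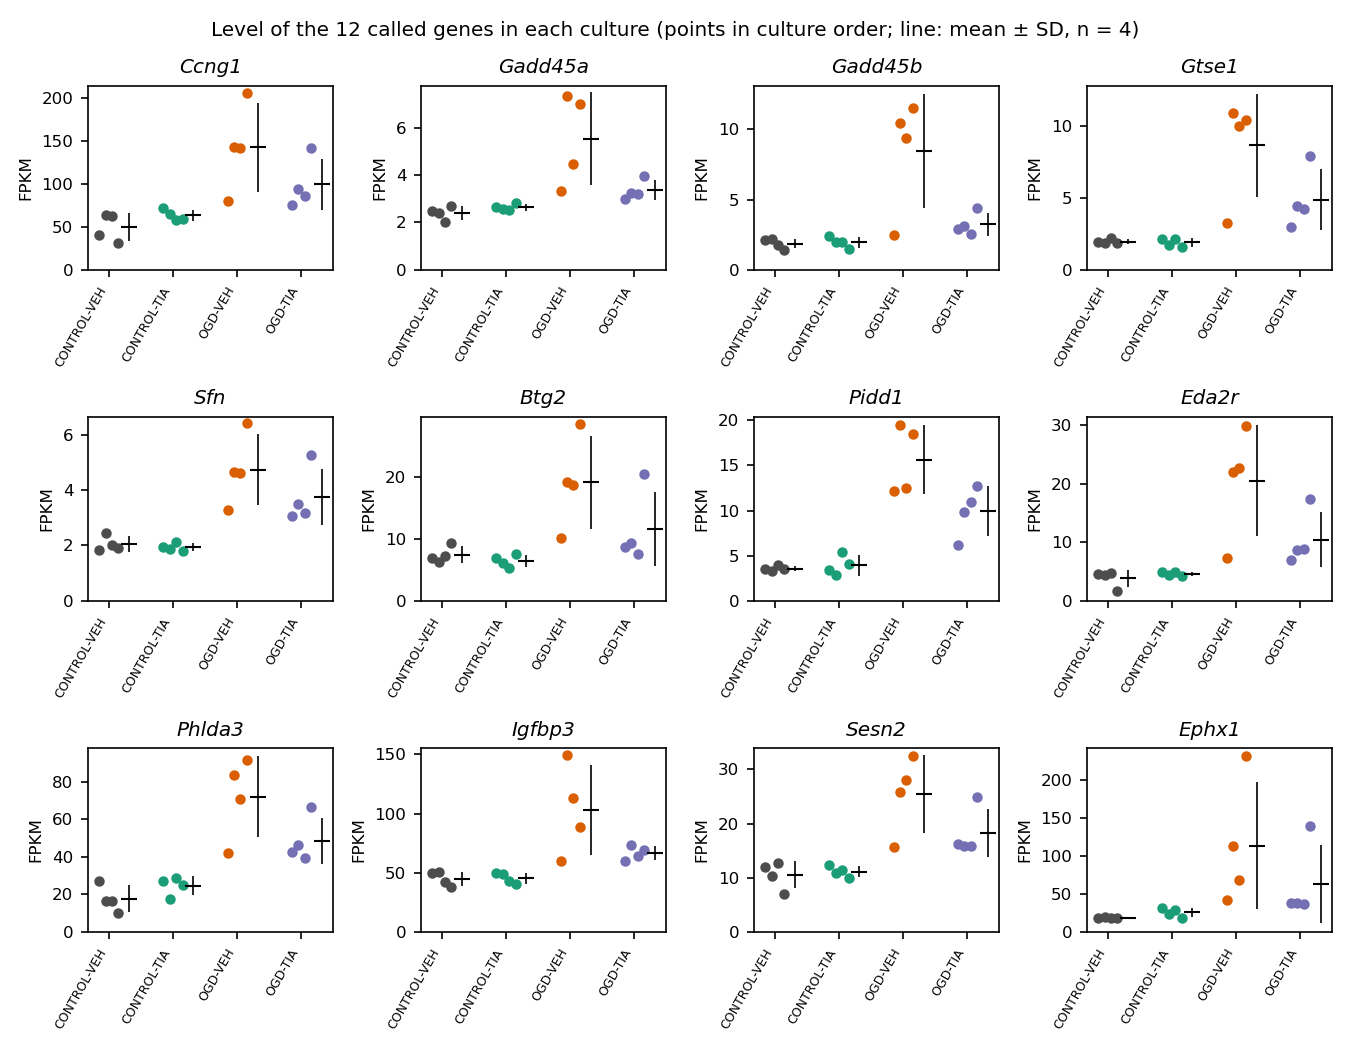
The panels show the FPKM of the 12 genes called in the vehicle arm in each of the 16 cultures, by group, with a bar at the group mean. In each panel every OGD-VEH point lies above every CONTROL-VEH point, and OGD-VEH 9 is the lowest of its group in each of the 12.

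Of the 11 genes of cell death and survival, 5 rose in the vehicle arm and 4 of these passed the fold threshold. *Pidd1* (chr7:141438113-141444025, minus strand) encodes the death domain protein of the PIDDosome, which activates caspase-2. It was at 3.55, 3.29, 3.99 and 3.51 FPKM in CONTROL-VEH and 12.1, 19.5, 12.5 and 18.5 FPKM in OGD-VEH. With TIA, *Pidd1* measured 3.37, 2.81, 5.44 and 4.12 FPKM in CONTROL-TIA and 6.19, 9.86, 10.9 and 12.7 FPKM in OGD-TIA. The OGD groups lay wholly above their controls, and here OGD-VEH 9 was close to OGD-VEH 11. The log2 fold change was 2.07 ± 0.19 in the vehicle arm, with the smallest padj of the 38 genes (0.0144, limma), and 1.31 ± 0.27 in the TIA arm (padj = 0.108). With isoforms weighted by length the vehicle-arm value was 1.47, and the lead isoform alone gave 0.90 ± 0.59 (padj = 0.441) there and 0.52 ± 0.36 (padj = 0.41) over both arms, so the size of the *Pidd1* change depended on which isoforms were counted. *Eda2r* (chrX:97333840-97377216, minus strand), the ectodysplasin A2 receptor of the tumour necrosis factor receptor family, was at 4.50, 4.42, 4.71 and 1.67 FPKM in CONTROL-VEH and 7.38, 22.0, 22.7 and 29.9 FPKM in OGD-VEH. TIA cultures held 4.90, 4.49, 4.88 and 4.17 FPKM in CONTROL-TIA and 6.95, 8.72, 8.81 and 17.4 FPKM in OGD-TIA for *Eda2r*. CONTROL-VEH 4 was low and OGD-VEH 9 and OGD-TIA 16 stood apart from their groups, but the groups did not overlap in either arm. The log2 fold change of *Eda2r* was 2.33 ± 0.48 (padj = 0.0367, limma) with vehicle and 1.08 ± 0.26 (padj = 0.122) with TIA.

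*Phlda3* (chr1:135766119-135769136, plus strand), a repressor of the survival kinase AKT, was at 27.3, 16.5, 16.7 and 9.92 FPKM in CONTROL-VEH and 42.1, 83.7, 71.0 and 91.6 FPKM in OGD-VEH. For *Phlda3* the TIA arm gave 27.0, 17.7, 29.0 and 25.2 FPKM in CONTROL-TIA and 42.6, 46.2, 39.3 and 66.4 FPKM in OGD-TIA. Neither arm showed overlap. *Igfbp3* (chr11:7206086-7213923, minus strand), a secreted protein that binds insulin-like growth factors, was at 49.7, 50.4, 41.8 and 38.03 FPKM in CONTROL-VEH and 60.1, 149.8, 113 and 88.6 FPKM in OGD-VEH. With TIA, *Igfbp3* was at 49.5, 48.7, 42.7 and 40.1 FPKM in CONTROL-TIA and 59.8, 73.6, 64.2 and 69.4 FPKM in OGD-TIA. The highest OGD-VEH culture for *Igfbp3* was culture 10, and all OGD cultures lay above their controls. The vehicle-arm log2 fold change was 2.06 ± 0.34 for *Phlda3* (padj = 0.0335, limma) and 1.12 ± 0.26 for *Igfbp3* (padj = 0.0437). In the TIA arm *Igfbp3* had the smallest padj of the 38 genes, 0.107, with a log2 fold change of 0.56 ± 0.10.

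*Zmat3* (chr3:32334792-32366014, minus strand), a zinc finger protein that binds RNA, was at 21.1, 17.6, 18.3 and 13.7 FPKM in CONTROL-VEH and 27.3, 27.6, 43.1 and 41.8 FPKM in OGD-VEH. Under TIA, *Zmat3* measured 17.2, 17.7, 19.7 and 19.3 FPKM in CONTROL-TIA and 26.9, 23.2, 24.1 and 27.1 FPKM in OGD-TIA. It rose in the vehicle arm by a log2 fold change of 0.96 ± 0.21 (padj = 0.0393, limma), and its OGD cultures lay above the controls in both arms. *Trp53inp1* (chr4:11156431-11174379, plus strand), which promotes phosphorylation of p53 and autophagy, was at 13.7, 16.01, 16.01 and 18.5 FPKM in CONTROL-VEH and 19.1, 42.1, 52.6 and 80.6 FPKM in OGD-VEH. In TIA cultures *Trp53inp1* was at 15.7, 13.9, 13.5 and 15.5 FPKM in CONTROL-TIA and 22.0, 23.8, 22.4 and 57.1 FPKM in OGD-TIA. Its groups did not overlap, but OGD-VEH spread widely and OGD-TIA 16 stood apart, and the vehicle-arm value of 1.42 ± 0.38 missed the threshold (padj = 0.052, limma).

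*Perp* (chr10:18845020-18857073, plus strand), a membrane protein of desmosomes that promotes apoptosis, was at 2.59, 2.61, 2.52 and 2.10 FPKM in CONTROL-VEH and 2.90, 4.60, 4.41 and 5.87 FPKM in OGD-VEH. The TIA arm held 3.26, 2.61, 2.75 and 2.97 FPKM in CONTROL-TIA and 3.29, 2.71, 3.13 and 4.29 FPKM in OGD-TIA for *Perp*. The vehicle groups did not overlap and the TIA groups did. *Siva1* (chr12:112644679-112649149, plus strand), a proapoptotic adaptor, was at 38.1, 34.2, 52.8 and 32.8 FPKM in CONTROL-VEH and 37.4, 100.4, 77.1 and 100.3 FPKM in OGD-VEH. With TIA, *Siva1* was at 61.7, 42.9, 45.0 and 31.2 FPKM in CONTROL-TIA and 59.3, 62.4, 55.3 and 85.8 FPKM in OGD-TIA. OGD-VEH 9 and OGD-TIA 13 and 15 lay within the range of their controls. Neither passed in the vehicle arm, with padj of 0.0565 for *Perp* and 0.0861 for *Siva1* (limma). The other 3 genes of the group, *Ei24*, *Aen* and *Shisa5*, gave vehicle-arm log2 fold changes of 0.19, 0.83 and -0.25, and none passed.

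Among the 6 sestrin, growth and metabolic genes, *Sesn2* and *Ephx1* rose in the vehicle arm. The sestrins restrain the growth kinase complex mTORC1 and protect against oxidants. *Sesn2* (chr4:132492032-132510501, minus strand) was at 11.95, 10.4, 12.8 and 7.05 FPKM in CONTROL-VEH and 15.6, 25.7, 28.1 and 32.5 FPKM in OGD-VEH. With TIA, *Sesn2* was at 12.3, 10.9, 11.4 and 9.97 FPKM in CONTROL-TIA and 16.2, 15.9, 15.9 and 24.95 FPKM in OGD-TIA. No OGD culture overlapped the controls of its arm, and the log2 fold change was 1.25 ± 0.27 in the vehicle arm (padj = 0.0383, limma) and 0.68 ± 0.16 in the TIA arm (padj = 0.122). *Sesn1* (chr10:41809935-41908424, plus strand) was at 12.7, 12.1, 12.1 and 20.7 FPKM in CONTROL-VEH and 13.6, 15.3, 13.6 and 25.6 FPKM in OGD-VEH. In TIA cultures *Sesn1* was at 13.6, 10.8, 11.9 and 13.97 FPKM in CONTROL-TIA and 13.7, 13.2, 12.6 and 19.9 FPKM in OGD-TIA. *Sesn3* (chr9:14275067-14333101, plus strand) was at 21.6, 21.8, 22.7 and 33.7 FPKM in CONTROL-VEH and 22.6, 27.1, 27.5 and 54.9 FPKM in OGD-VEH. For *Sesn3* the TIA arm gave 21.2, 21.8, 21.6 and 24.98 FPKM in CONTROL-TIA and 19.98, 21.9, 21 and 37.4 FPKM in OGD-TIA. For both *Sesn1* and *Sesn3* the highest culture of each group was CONTROL-VEH 4, CONTROL-TIA 8, OGD-VEH 12 or OGD-TIA 16, the same 4 cultures whose summed astrocyte markers were the highest of their groups (1485, 756, 2338 and 1785 FPKM), and the part of these markers in the levels was not tested. The groups overlapped, and the vehicle-arm log2 fold change was 0.23 ± 0.26 for *Sesn1* (padj = 0.557, limma) and 0.34 ± 0.28 for *Sesn3* (padj = 0.42).

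**Figure D3:**
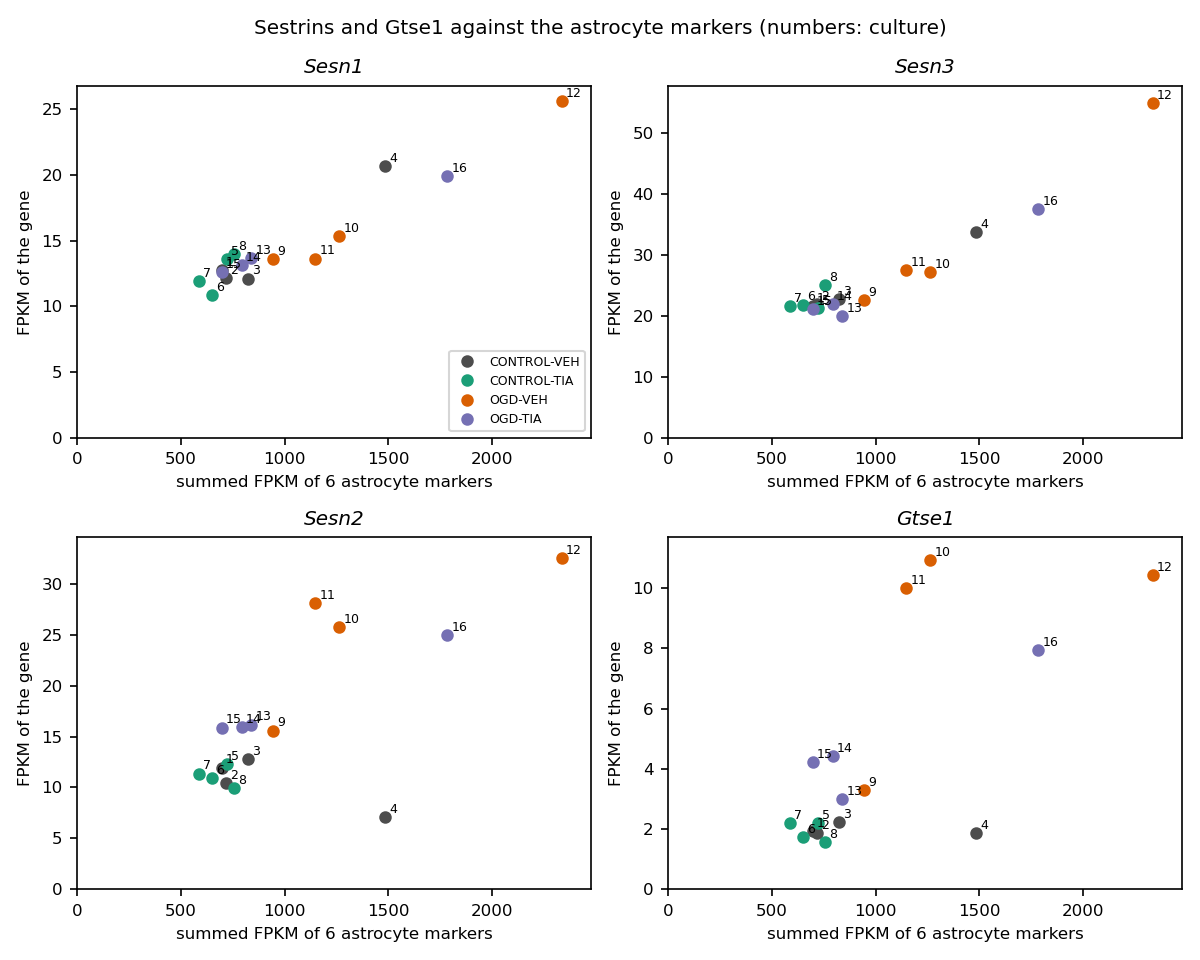
The panels plot the FPKM of *Sesn1*, *Sesn3*, *Sesn2* and *Gtse1* in the 16 cultures against the summed FPKM of 6 astrocyte markers, with points marked by group. The cultures at 1485, 1785 and 2338 FPKM of astrocyte markers hold the highest *Sesn1* and *Sesn3* values, and for *Sesn2* and *Gtse1* every OGD culture lies above every control culture of its arm. The part of the markers was not tested for any of the 4 genes.

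*Ephx1* (chr1:180976210-181020904, minus strand), microsomal epoxide hydrolase, detoxifies reactive epoxides. *Ephx1* was at 18.6, 19.4, 18.1 and 17.7 FPKM in CONTROL-VEH and 41.9, 113, 68.4 and 231 FPKM in OGD-VEH. Under TIA, *Ephx1* measured 30.8, 23.9, 29.4 and 18.2 FPKM in CONTROL-TIA and 38.1, 37.8, 36.4 and 139.8 FPKM in OGD-TIA. OGD-VEH 12 and OGD-TIA 16 were far above the rest of their groups, and the lowest OGD culture of each arm was still above its controls. The log2 fold change was 2.33 ± 0.45 in the vehicle arm (padj = 0.034, limma) and 1.05 ± 0.43 in the TIA arm (padj = 0.239). *Tsc2*, an inhibitor of mTORC1, and *Steap3*, an iron reductase, marked the extremes of level of the 38 genes, with CONTROL-VEH means of 385 ± 44.0 and 0.506 ± 0.122 FPKM (SD, n = 4), and had log2 fold changes of 0.05 and 0.54 that did not pass.

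In the repair and nucleotide supply group, 1 of 4 genes rose in the vehicle arm. *Polk* (chr13:96480690-96542579, minus strand), the translesion DNA polymerase kappa, was at 2.45, 2.52, 2.46 and 2.70 FPKM in CONTROL-VEH and 3.255, 5.59, 5.52 and 5.68 FPKM in OGD-VEH. With TIA, *Polk* was at 2.86, 2.49, 3.11 and 2.09 FPKM in CONTROL-TIA and 3.42, 3.55, 3.32 and 4.37 FPKM in OGD-TIA. OGD-VEH 9 again stood apart below OGD-VEH 10 to 12, which lay close together, and all OGD cultures exceeded their controls. *Xpc* (chr6:91489305-91515888, minus strand), a sensor of helix distortion in nucleotide excision repair, was at 6.95, 6.55, 6.67 and 7.38 FPKM in CONTROL-VEH and 8.30, 9.84, 9.48 and 10.9 FPKM in OGD-VEH. TIA cultures held 7.37, 6.995, 6.33 and 5.86 FPKM in CONTROL-TIA and 8.29, 7.60, 7.53 and 9.34 FPKM in OGD-TIA for *Xpc*. The differences were small but without overlap in either arm. The vehicle-arm log2 fold change was 0.92 ± 0.21 for *Polk* (padj = 0.0416, limma) and 0.47 ± 0.13 for *Xpc* (padj = 0.053). *Ddb2*, another damage sensor, lay between 6.54 and 10.8 FPKM in all 16 cultures. Its vehicle-arm log2 fold change was 0.09, 95% interval -0.32 to 0.51. *Rrm2b*, the p53-inducible subunit of ribonucleotide reductase, ranged from 10.9 to 102 FPKM, its vehicle-arm value was -0.94 ± 0.64 (padj = 0.318), and with array quality weights it was called lower.

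Of the 3 feedback genes, *Rchy1* rose in the vehicle arm. *Rchy1* (chr5:91948904-91963068, minus strand), a ubiquitin ligase for p53, was at 37.4, 29.9, 30.6 and 31.3 FPKM in CONTROL-VEH and 39.2, 46.9, 52.6 and 48.6 FPKM in OGD-VEH. With TIA, *Rchy1* was at 33.1, 33.5, 31.5 and 32.4 FPKM in CONTROL-TIA and 35.2, 36.2, 36.9 and 40.9 FPKM in OGD-TIA. *Ppm1d* (chr11:85311244-85347066, plus strand), the phosphatase WIP1 that turns off ATM signalling, was at 9.02, 8.76, 9.88 and 10.3 FPKM in CONTROL-VEH and 10.9, 15.4, 15.2 and 15.1 FPKM in OGD-VEH. The *Ppm1d* values with TIA were 9.40, 8.52, 9.45 and 8.82 FPKM in CONTROL-TIA and 12.2, 11.3, 11.4 and 13.8 FPKM in OGD-TIA. Neither gene showed overlap in either arm. The vehicle-arm log2 fold change was 0.53 ± 0.13 for *Rchy1* (padj = 0.0458, limma) and 0.56 ± 0.15 for *Ppm1d* (padj = 0.0519). *Pml*, the scaffold of nuclear bodies, was at 1.65 to 7.92 FPKM in 15 cultures and at 28.0 in OGD-VEH 12, and its groups overlapped.

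None of the 4 damage kinases passed in the vehicle arm. *Atm* (chr9:53439149-53536740, minus strand) was at 2.85, 3.197, 3.30 and 6.62 FPKM in CONTROL-VEH and 4.79, 17.2, 12.8 and 14.1 FPKM in OGD-VEH. In TIA cultures *Atm* was at 3.71, 5.99, 12.6 and 5.18 FPKM in CONTROL-TIA and 4.65, 8.02, 10.2 and 20.5 FPKM in OGD-TIA. The groups overlapped in both arms, since CONTROL-VEH 4 lay above OGD-VEH 9 and CONTROL-TIA 7 above 3 of the OGD-TIA cultures. *Atr* (chr9:95857597-95951781, plus strand) was at 7.63, 7.36, 7.40 and 6.00 FPKM in CONTROL-VEH and 9.77, 10.4, 7.83 and 9.13 FPKM in OGD-VEH. With TIA, *Atr* was at 7.84, 8.41, 9.15 and 7.83 FPKM in CONTROL-TIA and 8.56, 8.59, 7.16 and 8.52 FPKM in OGD-TIA. Its vehicle groups did not overlap, though OGD-VEH 11 was only just above the highest control, and its TIA groups did. *Chek2* (chr5:110839979-110874145, plus strand) was at 0.953, 1.76, 2.02 and 1.97 FPKM in CONTROL-VEH and 1.64, 2.95, 3.398 and 10.00 FPKM in OGD-VEH. For *Chek2* the TIA arm gave 1.48, 1.07, 1.13 and 1.14 FPKM in CONTROL-TIA and 1.19, 1.93, 2.21 and 5.10 FPKM in OGD-TIA. OGD-VEH 12 and OGD-TIA 16 were high and OGD-VEH 9 and OGD-TIA 13 lay within their controls. The vehicle-arm padj was 0.0545 for *Atm*, 0.102 for *Atr*, 0.154 for *Chek2* and 0.652 for *Chek1* (limma), which lay between 2.91 and 8.68 FPKM in all cultures.

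In the TIA arm, 0 of the 38 genes and 0.0% of the 16242 genes tested were called by limma. With DESeq2 on counts at the same thresholds, the study did report differentially expressed genes in this comparison. It also reported more of them in the vehicle arm than were called here. The 0 therefore describes the limma fit on FPKM and does not show that OGD changed no gene under TIA. The smallest padj was 0.107 among the 38 genes and 0.0741 in the whole table. At an unadjusted p under 0.05, 21 of the 38 were higher after OGD (11.6% of all genes) and 0 were lower, and with array quality weights 1 of the 38 was called, *Gtse1*. In 19 of 38 every OGD-TIA culture lay above every CONTROL-TIA culture (9.51% of all genes), and in 0 did every one lie below (6.72%). The median log2 fold change was 0.39 over the 38 genes and 0.04 over all genes, and 34 of 38 were above 0 (55.8% of all genes).

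**Figure D4:**
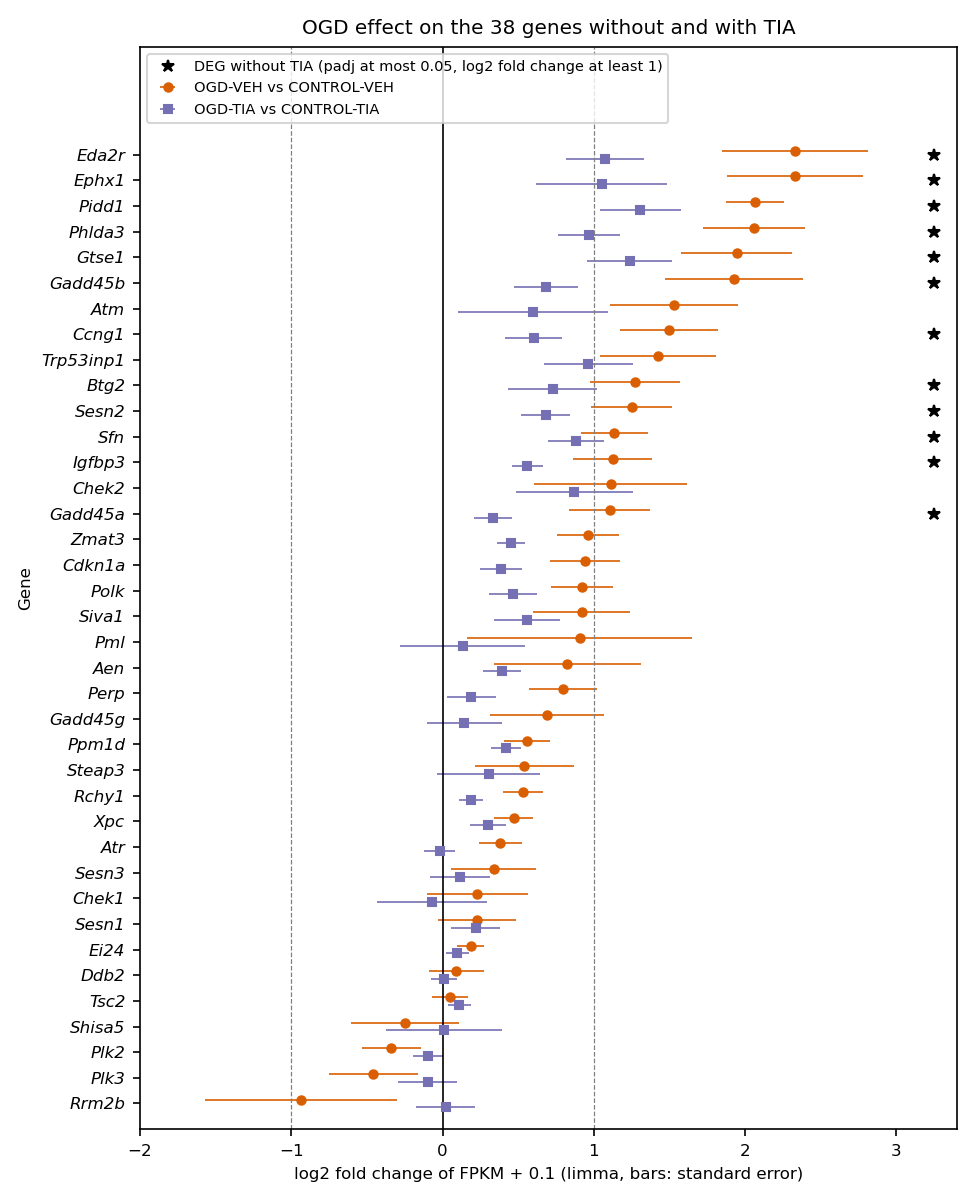
For each of the 38 genes the plot gives the log2 fold change of OGD against control with its standard error in the vehicle arm and in the TIA arm, 4 cultures against 4, with stars at the 12 genes called in the vehicle arm. The vehicle-arm points lie to the right of the TIA-arm points in 33 of the 38 genes, and 0 genes carry a star in the TIA arm.

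Taking both arms into 1 additive fit over the 16 cultures, OGD against control gave 10 called genes, all higher, beside 2.8% of the 16313 genes called higher and 4.78% called in either direction. These were *Pidd1* (1.69 ± 0.19, padj = 0.000349, limma), *Gtse1* (1.59 ± 0.25, padj = 0.00148), *Eda2r* (1.70), *Ephx1* (1.69), *Phlda3* (1.51), *Gadd45b* (1.30), *Trp53inp1* (1.19), *Atm* (1.06, padj = 0.0332), *Ccng1* (1.05) and *Sfn* (1.01). At an unadjusted p under 0.05, 25 of 38 were higher (26.1% of all genes). At padj of at most 0.05 with no fold threshold, 23 of 38 were higher (18.7% of all genes) and 0 lower (13.4%). The 23 added *Cdkn1a*, *Gadd45a*, *Btg2*, *Perp*, *Siva1*, *Zmat3*, *Igfbp3*, *Sesn2*, *Xpc*, *Polk*, *Ppm1d*, *Rchy1* and *Chek2* to the 10. Among these, *Btg2*, *Chek2* and *Sesn2* lay nearest to the fold threshold, at 0.9997, 0.99 and 0.97. Of the groups, 7 of 10 arrest genes, 8 of 11 death and survival genes, and 2 genes each of the sestrin, repair, feedback and kinase groups rose. Leaving out any 1 culture left between 7 and 13 called, beside 3.23% to 6.49% of all genes. *Pidd1*, *Gtse1*, *Eda2r*, *Ephx1*, *Phlda3*, *Gadd45b* and *Trp53inp1* were called in each of the 22 fits of the summed values.

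No difference between TIA and vehicle in the absence of OGD was detectable for these genes. Between CONTROL-TIA and CONTROL-VEH, 0 of the 37 genes tested were called (0.0% of 16170 genes), and 1 had an unadjusted p under 0.05 (1.81% of all genes were higher at that level), *Ephx1* with 0.44 ± 0.16 (padj = 0.999, limma). *Steap3* lay under the filter on low values there. The log2 fold change was above 0 in 23 of the 37 (48.5% of all genes). Every CONTROL-TIA culture lay above every CONTROL-VEH culture for *Atr* and, by a margin smaller than the digits shown, *Perp* (0.965% of all genes), and below for 0 genes (1.09%).

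After OGD, TIA-treated cultures were lower than vehicle-treated ones for most of these genes, but none passed the test. OGD-TIA against OGD-VEH gave a log2 fold change below 0 in 33 of 38 and above 0 in 5 (43.3% of all genes lay above), with a median of -0.39 against -0.05 over all genes, 0 called genes (0.0% of 16351) and a smallest padj of 0.551 by limma. At an unadjusted p under 0.05, 6 were lower (5.04% of all genes), *Cdkn1a* (-0.43 ± 0.18), *Gadd45a* (-0.64 ± 0.26), *Gadd45b* (-1.18 ± 0.47), *Pidd1* (-0.67 ± 0.26), *Zmat3* (-0.43 ± 0.18) and *Rchy1* (-0.32 ± 0.12), and 1 was higher (2.87%), *Rrm2b* (1.17 ± 0.46). The summed value of *Rrm2b* depended on which isoforms were counted. It was 0.29 with isoforms weighted by length, and the isoform of 4561 bases alone gave 0.04 ± 0.12. Only for *Zmat3* did every OGD-TIA culture lie below every OGD-VEH culture (2.51% of all genes). With array quality weights 5 genes were called, *Btg2*, *Eda2r*, *Gadd45b* and *Gtse1* lower and *Rrm2b* higher, beside 2.5% of all genes.

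The groups after OGD were not uniform. OGD-VEH 9 was the lowest of its group in 33 of 38 genes (41.6% of all genes). OGD-TIA 16 was the highest of its group in 29 (38.4% of all genes), and OGD-VEH 12 of its own in 22 (37.1%). The median change of the 38 genes from the controls of the same arm was 0.28, 0.86, 0.93 and 1.19 in OGD-VEH 9 to 12 and 0.28, 0.34, 0.30 and 0.69 in OGD-TIA 13 to 16. The limma quality weights were 0.348 for OGD-VEH 9 and 0.356 for OGD-VEH 12 in the vehicle arm and 0.197 for OGD-TIA 16 in the TIA arm, so that the weighted calls above lean on the remaining cultures.

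The test of the difference itself, the interaction of OGD and TIA over the 16 cultures, called 0 of the 38 genes (0.0% of 16313), with a smallest padj of 0.722 by limma. At an unadjusted p under 0.05 there were 10, all with a smaller OGD effect in the TIA arm (3.4% of all genes lay below 0 at that level), and these were *Ccng1* (-0.89 ± 0.40), *Gadd45a* (-0.77 ± 0.30), *Gadd45b* (-1.24 ± 0.53), *Perp* (-0.60 ± 0.27), *Pidd1* (-0.76 ± 0.34), *Eda2r* (-1.25 ± 0.59), *Phlda3* (-1.09 ± 0.42), *Zmat3* (-0.51 ± 0.23), *Rchy1* (-0.34 ± 0.14) and *Atr* (-0.40 ± 0.16). The median interaction was -0.44 over the 38 genes and -0.04 over all genes. With array quality weights 1 gene passed, *Gadd45b*. This comparison shares its cultures with those of the single arms and of OGD-TIA with OGD-VEH, so the 3 are not independent.

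Summed values hide which isoform moved, and a short isoform counts for more FPKM per read. In *Atm* the isoform of 602 bases went from 0.670 ± 0.918 FPKM in CONTROL-VEH to 7.09 ± 3.87 in OGD-VEH (SD, n = 4), while the isoform of 9819 bases, which encodes the full kinase, went from 2.94 ± 0.295 to 4.39 ± 1.30. Over both arms the log2 fold change of *Atm* was 1.06 summed, 0.49 with isoforms weighted by length and 0.40 ± 0.15 for the long isoform alone (padj = 0.105, limma). In *Ephx1* the isoform of 742 bases went from 1.98 ± 3.61 to 47.6 ± 30.5 FPKM and that of 1741 bases from 12.2 ± 3.03 to 24.5 ± 10.4, with large spreads. *Phlda3* divided between an isoform of 1435 bases, 14.3 ± 3.12 and 35.2 ± 14.3 FPKM, and a processed transcript of 569 bases, 3.26 ± 6.43 and 36.9 ± 9.34. Its vehicle-arm log2 fold change was 2.06 summed and 1.20 ± 0.36 for the isoform of 1435 bases alone (padj = 0.16, limma).

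In *Pidd1* most of the signal lay on transcripts annotated as retained introns, and the largest of these, of 524 bases, went from 0.226 ± 0.190 to 7.51 ± 3.51 FPKM. In *Rrm2b* the isoform of 4561 bases stood at 9.56 ± 1.11 and 8.13 ± 0.401 FPKM while that of 420 bases went from 13.1 ± 15.5 to 0.0135 ± 0.0270. The lead isoform of *Ccng1*, of 3512 bases, carried its change at 32.5 ± 10.1 and 78.4 ± 27.7 FPKM. Tested each by itself over the whole isoform table, 0 of the 38 lead isoforms (the isoform with the largest product of FPKM and length) were called in the vehicle arm, beside 0.141% of the 53087 isoforms tested. Of the 38, 32 lay above 0 (55.2% of all isoforms) and 21 were higher at an unadjusted p under 0.05 (10.6%), with a median log2 fold change of 0.76 against 0.09 over all isoforms. Over both arms 4 were called, all higher, beside 1.04% of all isoforms (*Gtse1*, *Sfn*, *Eda2r*, *Trp53inp1*). Isoforms under 1000 bases held over 50% of the FPKM in 9 genes (*Aen*, *Atm*, *Ei24*, *Ephx1*, *Pidd1*, *Rrm2b*, *Shisa5*, *Siva1* and *Tsc2*).

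**Figure D5:**
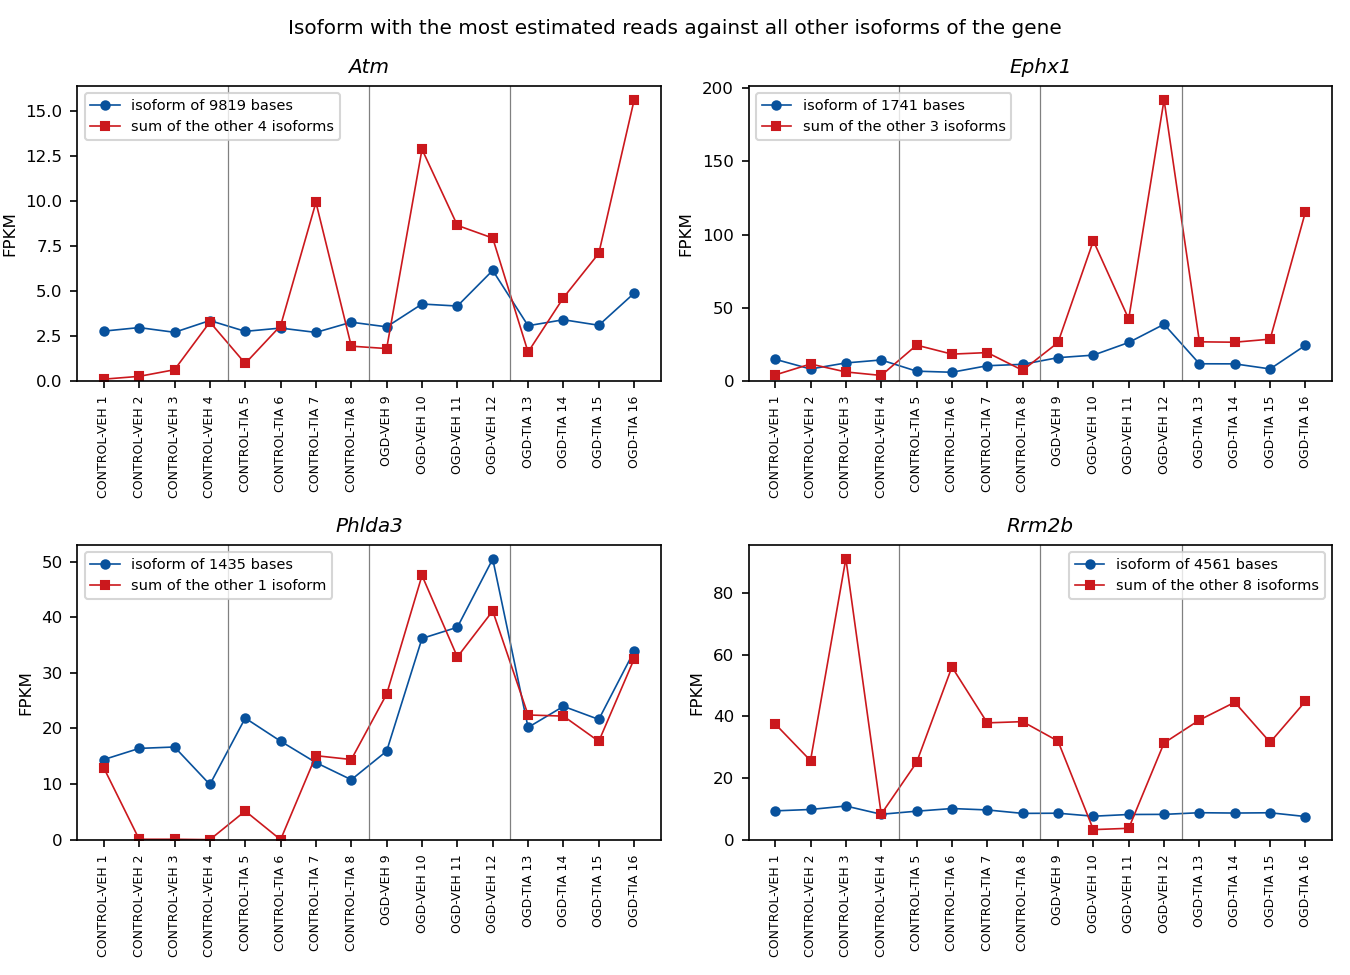
The panels show the FPKM of the lead isoform and of the sum of the other isoforms of *Atm*, *Ephx1*, *Phlda3* and *Rrm2b* in each of the 16 cultures. In *Atm* and *Ephx1* the other isoforms carry most of the rise after OGD. In *Phlda3* the other isoform rises by more FPKM than the lead isoform in the vehicle groups. In *Rrm2b* the other isoforms vary from culture to culture while the lead isoform stays near 8.13 to 9.56 FPKM on average in the vehicle groups.

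Some further genes listed with the p53 pathway rose as well. The list includes *Tnfrsf1a*, a gene of tumour necrosis factor signalling whose place in the p53 pathway was not checked. Of the 39 listed genes 36 were tested in the vehicle arm and 5 were called, all higher (2.4% of all genes were called higher and 4.09% in either direction), with a median log2 fold change of 0.51. The 5 with the smallest p were *Tnfrsf1a*, the main receptor of tumour necrosis factor, at 3.59 ± 0.40, the death receptor *Fas* at 2.90 ± 0.48, *Tnfrsf10b*, the mouse receptor of TRAIL, at 2.32 ± 0.39, the cell cycle kinase *Cdk4* at 0.95 ± 0.18, which was under the fold threshold, and *Trp53*, which encodes p53, at 2.0 ± 0.40. The group mean of *Trp53* was 40.0 FPKM in CONTROL-VEH, 142 in OGD-VEH, 51.5 in CONTROL-TIA and 97.4 in OGD-TIA. In the TIA arm 0 of 35 were called. Over both arms 7 of 35 were, all higher (2.8% of all genes), and at padj of at most 0.05 alone 14 were higher (18.7%) and 3 lower (13.4%).

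Genes of DNA break signalling and repair outside the 38 gave no call in the vehicle arm. Of 29 tested in the vehicle arm 0 were called by limma, 0 passed the adjusted p alone, and the median log2 fold change was 0.07. The smallest p values among them belonged to *Trp53bp1* at -0.51 ± 0.14 and *Rad50* at 1.28 ± 0.36, each short of the adjusted threshold. Over both arms 7 of the 29 were higher at padj of at most 0.05 (18.7% of all genes) and 1 was lower (13.4%). *Rad50* was called (1.07), *Ercc5* (0.60), *Xrcc1* (0.34) and *Nbn* (0.33) were among the higher ones under the fold threshold, and *Trp53bp1* was the one that fell, by 0.33. Immediate early genes, which respond to calcium and stress, moved in both directions. Of 16 tested in the vehicle arm 4 were called higher (2.4% of all genes) and 1 lower (1.68%), with *Fosl1* at 4.98 ± 0.60, *Atf3* at 2.54 ± 0.53, *Fos* at 2.12 ± 0.44 and *Egr3* at -1.99 ± 0.41, and 0 were called in the TIA arm.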

How the data were processed

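RNA from 16 cultures, 4 per group, was sequenced by the authors as stranded mRNA libraries with single reads of 50 bases, aligned with STAR to GRCm38 (Ensembl annotation) and quantified per isoform with eXpress; software versions are not given in the sources used here. The deposited values are FPKM per isoform, scaled by the authors with trimmed means (TMM). They are not counts, so limma (3.58.1, R 4.3.3) was used in place of the DESeq2 of the study. The 74 lines of the table with no identifier (0.0507% of the summed FPKM) were left out. Isoforms were summed per symbol, genes with a mean under 0.5 FPKM in the cultures compared were removed, and log2(FPKM + 0.1) was fitted with an intensity trend and Benjamini-Hochberg adjustment (padj) over all genes tested. A gene was called at padj of at most 0.05 and an absolute log2 fold change of at least 1. Each pairwise comparison used its 8 cultures, and the effect over both arms and the interaction used all 16. The fit was tested on simulated data.

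Genes given culture by culture are those with padj of at most 0.05 in any comparison, the GADD45 and sestrin families, *Atm* and *Atr*. The 38 genes, the marker lists and the other lists were chosen with earlier results of these data known. Alternatives were a pseudocount of 1, no filter, median-ratio scaling, array quality weights, isoforms weighted by length, all 16 cultures in 1 fit, leaving out each culture and, chosen after seeing the data, each isoform by itself. Depth was estimated from the steps between low FPKM values, so no counting interval is given. Promoters came from RefSeq (GRCm38.p6), and gene coordinates and isoform lengths from the GENCODE M21 annotation of GRCm38, in which 218 of the 221 isoforms have the start and end of the deposited table. Python 3.11.15, pandas 2.3.3, scipy 1.17.1 and matplotlib 3.10.9 were used.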

Additional observations from a re-analysis of the deposited data

Results flagged for a closer look

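Each group of 4 cultures was examined for a culture that stood apart from the other 3, for each of the 38 genes. In 23 of the 152 groups 1 culture did, where chance alone gives about 1 in 20 (8 of the 23 were in OGD-TIA 16, 5 in CONTROL-VEH 4, 4 in OGD-VEH 12, 3 in OGD-VEH 9 and 1 each in CONTROL-TIA 5, CONTROL-TIA 8 and OGD-TIA 15). The genes of 1 culture are not independent of each other. All values are FPKM.

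OGD-TIA 16 stood above its group for *Cdkn1a* at 69.9, *Btg2* at 20.5, *Trp53inp1* at 57.1, *Sesn1* at 19.9, *Sesn2* at 24.95, *Sesn3* at 37.4, *Ephx1* at 139.8 and *Pml* at 7.92. OGD-VEH 12 stood above its group for *Sesn1* at 25.6, *Sesn3* at 54.9 and *Pml* at 28.0, and below it for *Plk2* at 40.6. CONTROL-VEH 4 was high for *Sesn1* at 20.7, *Sesn3* at 33.7 and *Atm* at 6.62, and low for *Eda2r* at 1.67 and *Atr* at 6.00. These 3 cultures and CONTROL-TIA 8 had the highest summed astrocyte markers of their groups, 1785, 2338, 1485 and 756 FPKM, and the part of those markers was not tested. OGD-VEH 9 was low for *Gtse1* at 3.29, *Polk* at 3.255 and *Ppm1d* at 10.9. The remaining values were *Cdkn1a* at 63.4 in CONTROL-TIA 5, *Sesn3* at 24.98 in CONTROL-TIA 8, both high, and *Atr* at 7.16 in OGD-TIA 15, which was low.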

How the results depend on the processing

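Over the vehicle arm the number of called genes among the 38, 12 in the report, was 1 with no filter on low values (0.111% of all genes called, against 4.09% in the report). It was 19 with array quality weights (11.8%) and 0 for each isoform by itself (0.141% of isoforms). When 1 culture was left out it was 0 to 19 (0.0061% to 13.4% of all genes). With a pseudocount of 1 it was 10 (3.11%). In the TIA arm and in the interaction it was 0, and 1 with array quality weights (0.493% and 0.619% of all genes), and between OGD-TIA and OGD-VEH it was 0, and 5 with those weights (2.5%). Over both arms, with 10 called, it was 4 for each isoform by itself (1.86% of isoforms) and 7 to 13 when 1 culture was left out (3.23% to 6.49% of all genes). Some small differences changed sign. In the vehicle arm *Tsc2* turned to -0.035 with median-ratio scaling, and *Ddb2* to -0.23 and *Pml* to -0.38 by isoform. Leaving out 1 culture there gave -0.49 to 0.041 for *Shisa5*, -0.042 to 0.12 for *Tsc2*, -0.0011 to 0.24 for *Ddb2* and -0.018 to 0.49 for *Chek1*. Between OGD-TIA and OGD-VEH, *Zmat3* turned to 0.021 by isoform, and *Atm* ran from -0.63 to 0.10 with 1 culture left out. Over both arms *Shisa5* turned to 0.033 with isoforms weighted by length, *Ddb2* to -0.0083 with median-ratio scaling, and *Pml* to -0.54, *Atr* to -0.39 and *Chek1* to -0.52 by isoform. With 1 culture left out *Shisa5* ran from -0.24 to 0.044 and *Chek1* from -0.046 to 0.21. Of 266 gene values under the other settings of the vehicle arm 228 kept their direction and their side of the threshold, and of 304 with a culture left out 214 did, 78 falling short of it. Only the 12 called genes could fall short, and the 214 are mostly values of genes that were not called in the report. Over both arms 206 of 227 values under the other settings and 562 of 608 with a culture left out kept both. The causes were not tested. The quality weights lower the share of the deviating cultures by construction, and without a filter the adjustment ran over 32532 genes instead of 16346. No paired analysis was possible because the cultures are numbered 1 to 16 and no number is shared between groups. Depth limits the genes near 0.5 FPKM, such as *Steap3*.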
